A study of Drosophila melanogaster with 3 samples.

Results

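The genes described here encode structural proteins of the insect cuticle. The rule for them uses the symbol only, although this gene set was proposed with earlier results of these data known. It takes the protein-coding genes of *Drosophila melanogaster* named Cpr or Lcp with a number, Ccp84, Edg, Pcp, Acp65 or Twdl. On dm6, the BDGP release 6 genome, with gene models of Ensembl release 115, 122 of 13945 protein-coding genes met this rule, and the other 13823 served as the background. Their values come from chromatin immunoprecipitation with sequencing (ChIP-seq) of the homeodomain protein OdsH (Odysseus) carrying GFP at its C terminus. Chromatin of whole white prepupae, males and females together, was taken from a stably transgenic line and precipitated with an antibody to GFP, after sonication to fragments of 200 to 800 bp. The labels give 1 group with 3 biological replicates and no second genotype, stage or treatment. Every animal sampled thus carried the fusion, and the ages of the animals are recorded as unknown. In such whole-animal chromatin, binding in few cells and weak binding in many cannot be told apart. No transcript was measured, so neither the tissues nor the activity of the cuticle genes could be checked here.

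The cuticle is secreted by the epidermis as layers of chitin fibres embedded in protein, and a new one is laid down at each moult. Most of its proteins carry the Rebers-Riddiford consensus, which binds chitin, whereas the Tweedle proteins form a separate family that shapes the body wall. The genes lie in tandem clusters, and many are switched on in short bursts that follow pulses of the steroid hormone ecdysone. The white prepupa is formed at such a pulse, when the larval cuticle hardens into the puparium. By symbol, 96 of the 122 genes were of the Rebers-Riddiford type and 25 were Tweedle genes. The remaining one, Edg91, encodes a glycine-rich cuticle protein and is, like Edg78E and Edg84A, named for its dependence on ecdysone.

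Few of the cuticle protein genes had OdsH-GFP at their start. A gene was counted when the summit of a peak lay within 1000 bp of any of its transcription start sites (TSSs), and the peaks were the 8700 of the authors' set that passed the irreproducible discovery rate (IDR) procedure. By this count 9 of the 122 genes had a summit, where 23.0% of all protein-coding genes had one. The share was 7.38% for the cuticle protein genes and 23.1% (3200 genes) for the others, a ratio of 0.319. The IDR set was not remade without a replicate. Leaving out replicate 1, 2 or 3 instead kept only IDR peaks that overlapped the 8700 strongest rows of both other replicates. This stricter rule gave shares of 4.10%, 4.92% and 4.10% and ratios of 0.217, 0.262 and 0.209. It left 5, 6 and 5 summits in place of 9. In the replicates' own lists, each cut at its 8700 strongest rows, 8, 6 and 8 cuticle protein genes were counted in replicates 1, 2 and 3, where 26.7%, 25.4% and 24.6% of all genes were. These counts equal shares of 6.56%, 4.92% and 6.56% of the cuticle protein genes, beside 26.9%, 25.6% and 24.8% of the others. The mean share was 6.01% ± 0.946 (SD, n = 3) against 25.8% ± 1.07 (SD, n = 3). The cuticle protein genes were thus lower in every replicate, by far more than the spread between replicates, and the ratio was 0.234 ± 0.0375 (SD, n = 3). Genes are not replicates and there is no second group, so no p-value was attached to any of these shares.

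**Figure D1:**
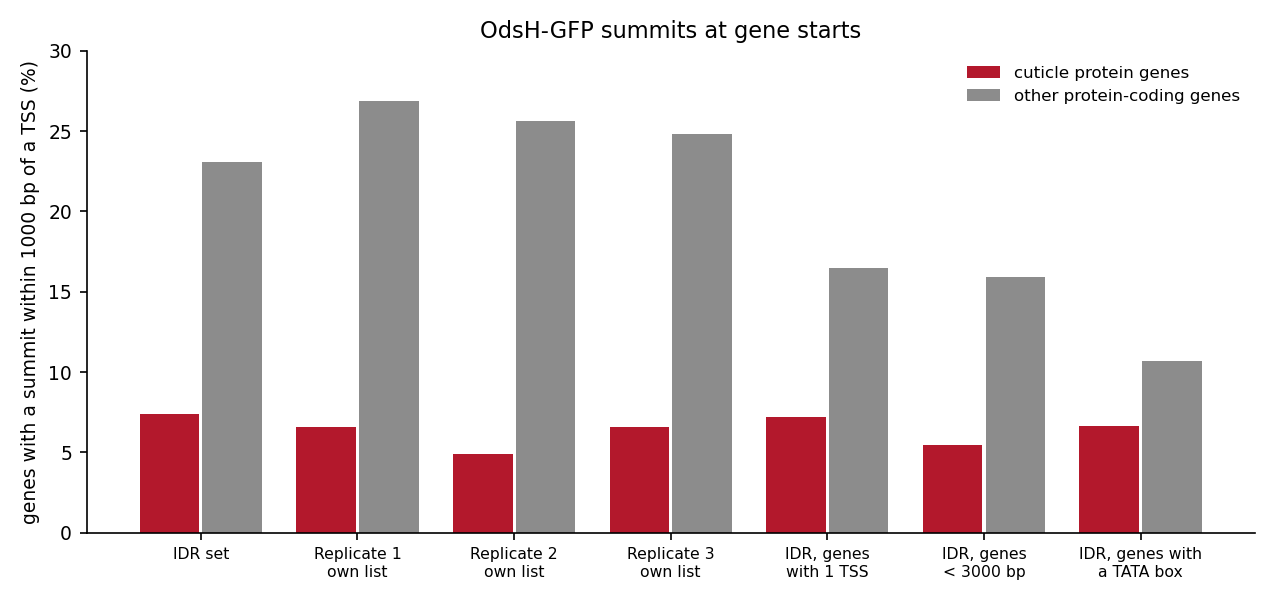
Bars give the share of genes, in percent, with a summit within 1000 bp of a TSS, for cuticle protein genes (red) and other protein-coding genes (grey), in the IDR set, in each replicate's own 8700 strongest rows, and in 3 subsets of genes (TATA box means TATAAA starting 20 to 45 bp upstream of the TSS). The red bars lie between 4.92% and 7.38%, and each is below its grey neighbour, which lies between 10.7% and 26.9%.

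The cuticle protein genes are short and simple, and among genes of that kind the others also had fewer summits. Their median length was 954 bp against 2182 bp for the others, and 91.0% of them had 1 annotated TSS against 73.3%. Among genes with 1 TSS, 8 of 111 cuticle protein genes (7.21%) and 16.5% of the others had a summit. Among genes shorter than 3000 bp the counts were 6 of 110 (5.45%) against 15.9%. When the whole gene body and 1000 bp upstream were searched, the count was again 9 cuticle protein genes (7.38%), and the others came to 27.1%. These were not all the same 9 genes, since the summit at Cpr47Ec lay past the end of that gene. The Rebers-Riddiford type held all 9 genes with a summit (9.38% of 96). None of the 25 Tweedle genes had one, nor did Edg91, where 23.0% of all protein-coding genes did. The Tweedle genes are few and 12 of them sit in 1 cluster, so a difference between the families cannot be read from these counts.

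Where a summit was found, it lay away from the start itself. None of the cuticle protein genes had an IDR summit within 250 bp of a TSS, where 14.1% of all genes had one, and 2 (1.64%) had their nearest summit 251 to 500 bp away, against 4.93% of the others. From 501 to 1000 bp the order was the other way, with 7 genes (5.74%) against 3.98%. Each gene was counted once, by its nearest summit, so a gene with a nearer summit could not enter this range. More of the other genes were left out of it in this way. Replicates 1, 2 and 3 put 1, 0 and 0 cuticle protein genes within 250 bp, beside 17.0%, 16.4% and 15.5% of the other genes. The one gene was Cpr66D, where a row of replicate 1 with its summit 218 bp from the TSS ranked 7252. From 501 to 1000 bp the replicates gave 4.10%, 4.10% and 5.74% for the cuticle protein genes and 4.24%, 4.14% and 4.00% for the others, so which group was higher there varied with the replicate. Among genes with a summit the median distance was 784 bp for the 9 cuticle protein genes and 194 bp for the 3200 others.

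**Figure D2:**
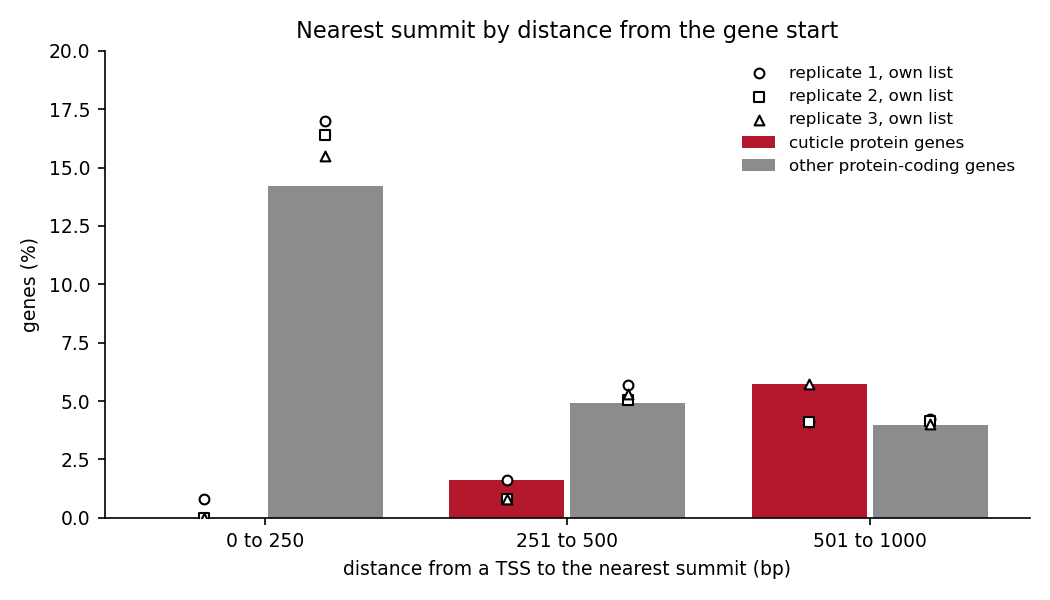
Bars give the share of genes, in percent, whose nearest IDR summit lay in each range of distance (bp) from a TSS, for cuticle protein genes (red) and other genes (grey), and open symbols give the same share in each replicate's own 8700 strongest rows. Within 250 bp the IDR set had 0 cuticle protein genes against 14.2% of the others, while from 501 to 1000 bp the replicates of both groups lie between 4.00% and 5.74%.

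The strongest of the 9 peaks stood upstream of Cpr72Eb (chr3L:16364899-16365707, plus strand), a Rebers-Riddiford type gene in a small cluster. Its peak covered chr3L:16364220-16364538 with the summit at 16364371, in intergenic DNA 528 bp upstream of the TSS. The authors' signal value, which ranks peaks within 1 list, was 383 in the IDR set, rank 1171 of 8700. In the lists of replicates 1, 2 and 3 the signal was 109, 151 and 127, at ranks 1059, 1370 and 1069, so the replicates placed it alike. The next was within Cpr62Ba (chr3L:1824129-1831783, minus strand), with the summit at 1829753 in an intron, 811 bp upstream of one of its 2 TSSs. Its signal was 278 (rank 1973), and the replicates ranked it 2409, 1892 and 2418. The third, with a signal of 130 (rank 5205), lay in an intron of Cpr66D (chr3L:8640439-8643584, plus strand), 784 bp downstream of the TSS, at ranks 5374, 5338 and 8364. All of these were among the 8700 strongest rows of all 3 replicates. Cpr12A and Cpr65Ea were weaker. The peak 267 bp upstream of Cpr12A (chrX:13543643-13544907, plus strand) had a signal of 88.2 (rank 7749), and ranks 11600, 9827 and 5737 left it to replicate 3 alone. The peak 925 bp upstream of Cpr65Ea (chr3L:7086003-7086608, minus strand) had a signal of 77.8 (rank 8658) and was likewise within the strongest rows of replicate 3 only, with ranks 11166, 10926 and 8068.

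The DNA at the summits of Cpr72Eb, Cpr62Ba and Cpr66D is shown because these peaks had the highest signal of the 9 and were shared by all 3 replicates. Each line holds the summit with 50 bases on either side, from the RefSeq sequence of the Release 6 assembly (dm6), plus strand, at chr3L:16364321-16364421 (Cpr72Eb), chr3L:1829703-1829803 (Cpr62Ba) and chr3L:8641173-8641273 (Cpr66D). Capitals mark TAATTA, a palindrome that holds the TAAT core contacted by many homeodomains.
Cpr72Eb: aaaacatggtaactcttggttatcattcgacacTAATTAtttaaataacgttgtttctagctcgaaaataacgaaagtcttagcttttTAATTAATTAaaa
Cpr62Ba: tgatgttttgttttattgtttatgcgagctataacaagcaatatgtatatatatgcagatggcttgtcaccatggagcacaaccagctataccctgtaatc
Cpr66D: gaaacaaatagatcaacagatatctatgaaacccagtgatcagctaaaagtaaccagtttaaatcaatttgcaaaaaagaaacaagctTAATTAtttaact
The window at Cpr72Eb held TAATTA at separate places, that at Cpr66D held it once near its edge, and that at Cpr62Ba held none. Among the other peaks, the window at Cpr12A held the word, and those at Cpr47Ec, Cpr49Ah, Cpr50Ca, Cpr47Ed and Cpr65Ea did not. Its share over all IDR summits is not given here, so no excess of the word can be read from these windows. GC content was 25.7% at Cpr72Eb, 27.7% at Cpr66D and 36.6% at Cpr62Ba. For Cpr12A the 300 bases upstream of the TSS (chrX:13543343-13543642, plus strand) hold both the summit, at base 34 of the line, and the core promoter. Capitals mark TATAAA and TAATTA.
Cpr12A: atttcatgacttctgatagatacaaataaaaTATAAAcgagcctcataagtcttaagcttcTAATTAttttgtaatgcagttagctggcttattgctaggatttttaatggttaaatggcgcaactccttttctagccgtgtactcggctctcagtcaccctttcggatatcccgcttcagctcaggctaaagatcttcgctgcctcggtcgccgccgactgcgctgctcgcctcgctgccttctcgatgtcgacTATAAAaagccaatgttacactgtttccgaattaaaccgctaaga
The last TATAAA starts 45 bp upstream of the TSS. A match is a description of these letters and not a mapped site.

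The other 4 peaks were on arm 2R. At Cpr47Ec (minus strand) the summit, at position 11259060, lay past the end of the gene, 916 bp downstream of the TSS, with a signal of 121 (rank 5629), and replicates 1, 2 and 3 ranked it 5398, 4888 and 7972. Its neighbour Cpr47Ed had a summit at 11262672, 866 bp upstream, with a signal of 80.2 (rank 8428), at ranks 8612, 10136 and 8597. The summit at 12413396, 566 bp upstream of Cpr49Ah, had a signal of 119 (rank 5736) and ranks of 6936, 6913 and 5227. The summit at 13769631, 284 bp upstream of Cpr50Ca, ranked 6821 in the IDR set, and its ranks of 8940, 6783 and 9348 put it within the strongest rows of replicate 2 only. Those at Cpr47Ec and Cpr49Ah were shared by all 3 replicates and that at Cpr47Ed by replicates 1 and 3.

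The 9 peaks were thus mostly weak. Their median signal was 119, where the median over the IDR set was 153, and 7 of the 9 were below the latter value. At the other genes with a summit the median was 215. It was taken over each gene's strongest summit, which can raise it where a gene has several. All 3 replicates shared 5 of the 9 peaks (55.6%), against 74.0% of IDR peaks at other genes' TSSs and 71.0% of all IDR peaks. Summits at cuticle protein genes also lay farther from the TSS, at a median of 784 bp against 194 bp at other genes. The comparisons of signal and sharing were not matched for this distance. A protein-coding TSS of a cuticle protein gene was the nearest to each of the 9 summits, and the nearest TSS of any other gene was 2385 to 19165 bp away. GC content of the summit windows was 31.2% ± 6.63 (SD, 9 windows), close to 31.8% ± 8.08 (SD) over all IDR summits. Over the replicates' own lists 11 genes were counted at least once, and Cpr100A and Cpr73D were counted in replicate 1 without being in the IDR set. The 5 genes counted in all 3 replicates were Cpr47Ec, Cpr49Ah, Cpr62Ba, Cpr66D and Cpr72Eb. No matching counts over all genes are given here, so the numbers 11 and 5 do not show whether such overlap is usual.

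**Figure D3:**
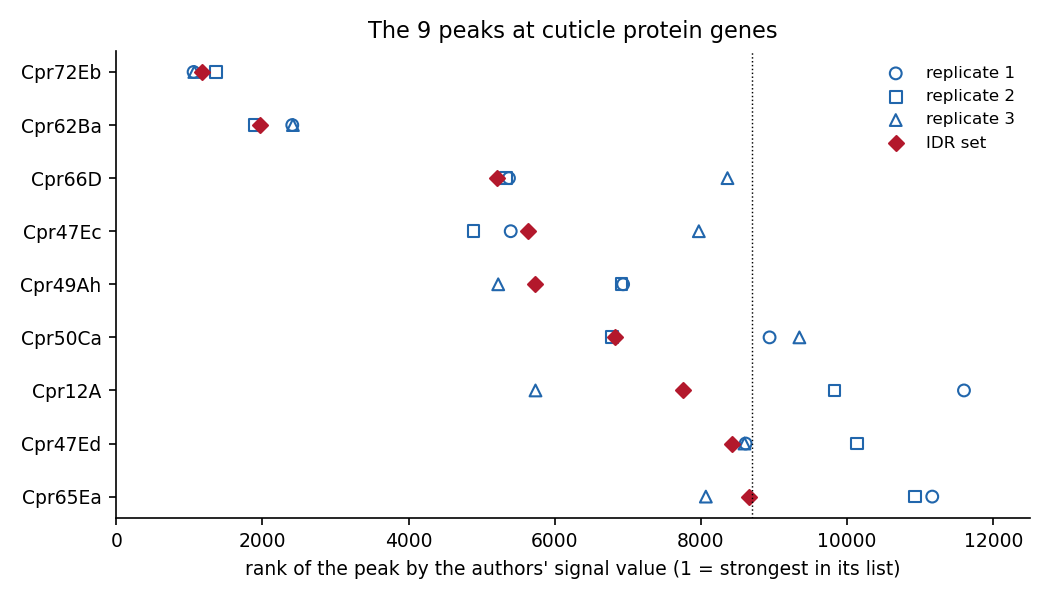
The horizontal axis gives the rank of each of the 9 peaks by the authors' signal value (1 is the strongest row of a list), as filled diamonds for the IDR set and open symbols for replicates 1, 2 and 3, with a dotted line at rank 8700. Cpr72Eb and Cpr62Ba lie at ranks of 1059 to 2418 in every list, whereas Cpr12A and Cpr65Ea cross the line in replicates 1 and 2.

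Just inside the window of 1000 bp was Cpr65Ea at 925 bp. Just outside it were Cpr73D at 1025 bp, Cpr72Ea at 1230 bp, Cpr65Eb at 1254 bp and Cpr97Eb at 1277 bp. The pooled list of 30000 rows, which by its description holds background beside peaks, had a summit within 1000 bp of 27 cuticle protein genes (22.1%), where 38.6% of all genes had one. In the full lists of replicates 1, 2 and 3, also of 30000 rows each, 30.3%, 25.4% and 30.3% of the cuticle protein genes had a summit, against 48.6%, 45.5% and 42.0% of the others. The ratios were 0.624, 0.558 and 0.723, nearer to 1 than in the IDR set. Of the 27 genes 18 had rows below the IDR set only. The strongest such rows were at Cpr72Ea (signal 76.2, rank 8830), Cpr49Ae (60.8, rank 10729), TwdlE (59.0, rank 10978), Cpr73D (56.0, rank 11467) and Acp65Aa, which encodes an adult cuticle protein (53.3, rank 11993).

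By arm, 4 of 27 genes on 2R (14.8%) had an IDR summit, beside 19.9% of the other genes there. On 3L it was 4 of 47 (8.51%, against 24.7%) and on the X 1 of 8 (12.5%, against 25.6%). All 33 genes on 3R and all 7 on 2L were without one, where 23.0% of the other genes on each of those arms had one. Most of the genes sit in clusters, taken here as runs of at least 3 members with at most 20 kb between neighbours. There were 15 such clusters with 88 members and 16 other genes, over 243 kb. Members in clusters and outside them differed little, with 6 of 88 (6.82%) and 3 of 34 (8.82%) counted.

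The clusters were dense in genes and sparse in summits. They held 42.8 protein-coding genes per 100 kb, against 10.4 over the 6 chromosome arms, and 2.88 IDR summits per 100 kb, against 6.50. Each replicate's own strongest rows also gave 2.88 per 100 kb, although not always in the same clusters. Leaving out replicate 1, 2 or 3, by keeping only IDR peaks shared by both other replicates, gave 1.64, 2.06 and 2.06 per 100 kb. Peaks shared by all 3 replicates gave 1.64. The 10 clusters with no IDR summit held 64 members. On 2R, Lcp1 to Lcp4, which encode cuticle proteins of the last larval stage, lay in a stretch of 105 kb without an IDR summit. On 3L, the stretches without a summit were 69.8 kb around Cpr64Aa to Cpr64Ad, 41.9 kb around Cpr67Fa1 to Cpr67Fb, 40.8 kb around Cpr76Ba to Cpr76Bd and 18.7 kb around Cpr78Ca to Cpr78Cc. The last of these clusters includes Edg78E. The largest cluster, Lcp65Ag3 to Cpr65Az on 3L with 18 members in 31.2 kb, lay in a stretch of 60.4 kb, although replicate 2 alone placed 1 of its strongest rows there. On 3R, Edg84A to Ccp84Aa (8 members in 20.5 kb) lay in 84.8 kb. The Tweedle clusters TwdlM to TwdlD (12 members in 21.9 kb) and TwdlF to TwdlV lay in 157 kb and 152 kb, ranks 60 and 67 among the 8694 gaps between neighbouring summits. On the X, TwdlX to Twdlalpha lay in 27.8 kb (rank 1135), and the stretch around Cpr78Ca to Cpr78Cc ranked 1736. The median gap was 4.35 kb, but each cluster without a summit spans more than that. Its stretch thus had to be longer than the median gap. Any place is also more likely to fall in a long gap than in a short one. The ranks therefore describe the stretches and do not measure how unusual they are.

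The other 5 clusters held 7 summits. Cpr47Ea to Cpr47Eg (7 members, 26.7 kb) and Cpr65Ea to Cpr65Ec (3 members, 7.84 kb) held 2 each. Cpr49Aa to Cpr49Ah (8 members, 38.5 kb), Cpr62Ba to Cpr62Bc (3 members, 18.0 kb) and Cpr72Ea to Cpr72Ec (3 members, 4.74 kb) held 1 each. Between genes lay 6 of the 7 summits, and the other was the intronic one in Cpr62Ba. The only one not already described lay between Cpr65Eb and Cpr65Ec at position 7090934 of 3L, with a signal of 96.0 (rank 7137), 2147 bp from the TSS of Cpr65Eb, and was shared by 2 replicates. In the pooled list the clusters held 33 rows, or 13.6 per 100 kb against 22.4 over the arms. The cluster from Lcp65Ag3 to Cpr65Az had 7 of these rows and that from Edg84A to Ccp84Aa had 2. In 5 clusters with 28 members, TwdlM to TwdlD among them, there was no pooled row at all.

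**Figure D4:**
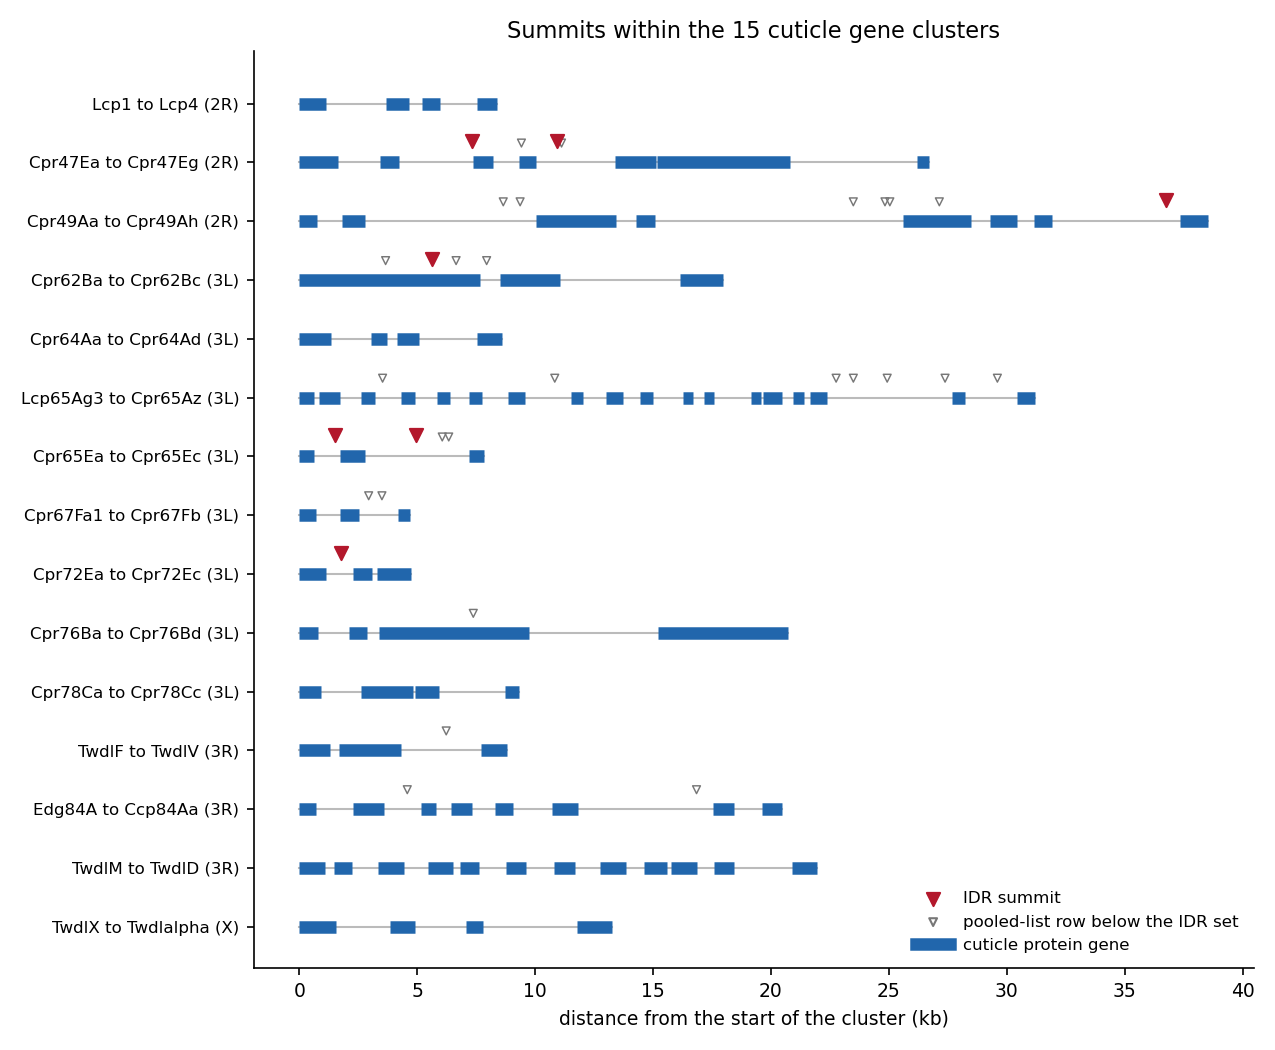
Each line is 1 of the 15 clusters, drawn to scale in kb from the start of its first gene, with cuticle protein genes as blue bars, IDR summits as filled red triangles and weaker rows of the pooled list as open triangles. Filled triangles stand in 5 clusters and mostly between the bars, and 10 clusters have none.

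Distances to the nearest IDR summit gave the same picture without a window. The median over the 122 genes was 11746 bp (range 267 to 77685) against 6220 bp for the other genes. In the replicates' own lists the medians were 12925, 8626 and 11763 bp, a mean of 11105 ± 2224 bp (SD, n = 3), against 5314 ± 376 bp (SD, n = 3). The replicates of both groups did not overlap. No summit came within 10000 bp of 68 of the cuticle protein genes (55.7%, against 36.4%), nor within 50000 bp of 12 of them (9.84%, against 4.17%). All 12 were the members of 1 cluster, TwdlM to TwdlD, which lies in a single stretch without a summit. Tweedle genes were the farthest, with a median of 23312 bp (range 3728 to 77685), beside 10635 bp (range 267 to 49884) for the Rebers-Riddiford type. That cluster holds 12 of the 25 Tweedle genes. Clustered genes share their surroundings, so these distances are not independent. Edg91 was 7012 bp away, and Pcp, a pupal cuticle protein gene nested in another gene, 2451 bp. Tb (chr3R:26656440-26657531), a Tweedle gene whose symbol falls outside the rule, lay 57933 bp from a summit. It lies in the same stretch without a summit as the cluster from TwdlM to TwdlD.

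**Figure D5:**
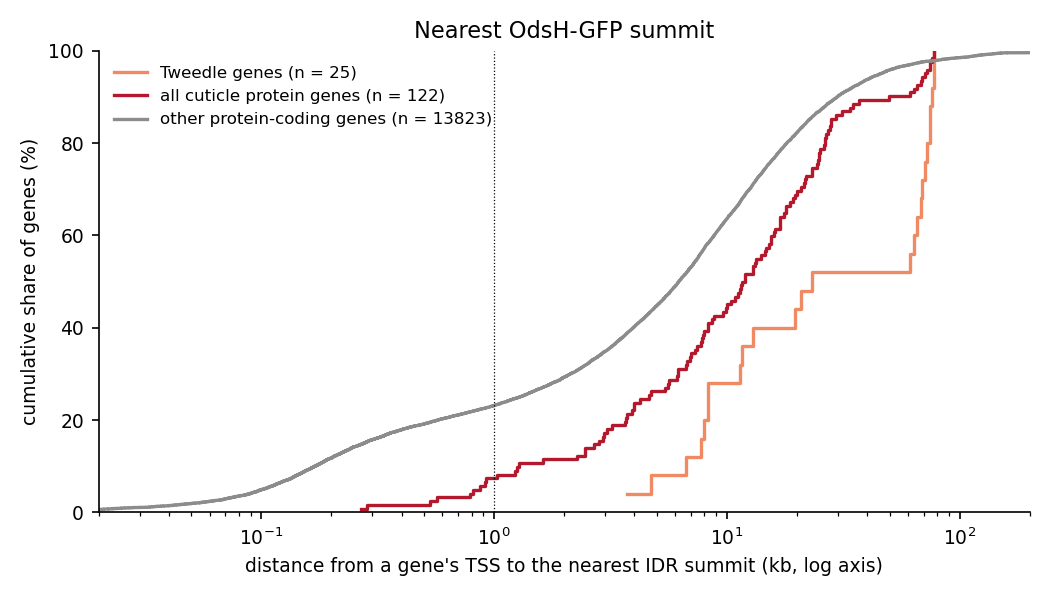
Curves give the cumulative share of genes, in percent, by distance from a TSS to the nearest IDR summit (kb, log axis), for the 25 Tweedle genes, all 122 cuticle protein genes and 13823 other protein-coding genes, with a dotted line at 1000 bp. The cuticle curve runs below that of the other genes up to about the longest distances, and the Tweedle curve starts at 3728 bp.

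Some of the clustered genes are near-identical copies, and no source used here says how reads that match several places were treated. The share of single-copy 31-mers in the TSS window was below 90% for 15 cuticle protein genes (12.3%, against 5.01% of the others), and none of them had a summit, while 52 of the 692 other genes below 90% (7.51%) had one. The 15 were 8 genes of the cluster from Lcp65Ag3 to Cpr65Az, lowest at Lcp65Ab1 with 25.9%, 2 of that from Edg84A to Ccp84Aa and 5 of the cluster from TwdlM to TwdlD. For 96 genes the share was at least 99%. With both groups limited to genes at 90% or more, 9 of 107 cuticle protein genes (8.41%) and 24.0% of the others had a summit, a ratio of 0.351 beside 0.319 over all genes.

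The core promoters of the cuticle protein genes differed from those of other genes in a feature that the choice by symbol did not use. TATAAA, the word of the TATA box that positions the polymerase, occurred in the 300 bases upstream of the TSS on either strand in 95 genes (77.9%), against 48.0% of all promoters of the same length. Counted on the sense strand only and starting 20 to 45 bp upstream, it was present in 75 of 122 genes (61.5%), against 8.81% of all promoters and 8.35% of the others. The first genes of the largest clusters without an IDR summit are shown with 100 bases upstream of the TSS, on the gene's own strand, with TATAAA in capitals. They are Lcp65Ag3 (chr3L:6130990-6131089, minus strand), which encodes a larval cuticle protein, Edg84A (chr3R:6684345-6684444, plus strand) and TwdlM (chr3R:26619018-26619117, plus strand), from the same RefSeq sequence.
Lcp65Ag3: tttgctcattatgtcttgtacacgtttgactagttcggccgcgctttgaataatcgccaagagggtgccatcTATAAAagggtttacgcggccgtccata
Edg84A: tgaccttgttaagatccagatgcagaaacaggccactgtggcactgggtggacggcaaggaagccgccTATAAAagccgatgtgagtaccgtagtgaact
TwdlM: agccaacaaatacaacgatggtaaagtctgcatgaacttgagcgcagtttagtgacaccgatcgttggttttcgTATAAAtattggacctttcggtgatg
The word starts 28, 32 and 26 bp upstream of the TSS in these genes.

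Genes with such a TATA box had fewer summits also outside the cuticle set. Among the other genes 124 of 1154 with it (10.7%) and 3076 of 12669 without it (24.3%) had an IDR summit. Among the cuticle protein genes it was 5 of 75 with it (6.67%) and 4 of 47 without it (8.51%). Limited to genes with the word at that place, the ratio of cuticle to other genes was 0.620, against 0.319 over all genes. This position window was chosen after the data had been seen, and the part of the TATA box in the low share was not tested. GC content of the 300 bases was 43.5% ± 6.41 (SD, n = 122) in the cuticle protein genes and 38.1% ± 8.01 (SD, n = 13823) in the others.

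Other words searched on both strands in the same 300 bases were at or below the level of all promoters. The homeodomain words TAATTA and TAATTG occurred in 18.9% and 23.8% of the cuticle protein genes, against 22.9% and 27.6% of all promoters. TATCGATA, which holds the DRE core, and GGTCACAC, known as motif 1 of housekeeping promoters, were in none of the cuticle promoters, against 8.59% and 4.81% of all. AAGGTCA, a nuclear receptor word that the ecdysone-induced factor Ftz-F1 binds, was in 1 of them (0.820%, against 2.41%). GAGAGAG, the word of the GAGA factor, was also in 1 (0.820%, against 5.89%), and AGATAAG, which holds the GATA core, was in 4 (3.28%, against 4.88%). A promoter without a word shows only that these letters are absent from 300 bases.

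Beside the cuticle protein genes, 13 regulators of cuticle genes were counted from a list made by hand with earlier results of these data known, so their share is a description only. Of these 9 (69.2%) had an IDR summit within 1000 bp, where 23.0% of all genes did, with no allowance for gene length or the number of TSSs. Hr4, br, Hr38 and Hr39 had none. The strongest were at Eip75B, an ecdysone-induced nuclear receptor (signal 586, rank 516), and grh, the epidermal barrier factor Grainy head (463, rank 847). Hr3 (254), the ecdysone receptor subunit usp (230), Eip93F (209), Eip74EF (rank 3063), the receptor gene EcR (180) and Blimp-1 (157) followed, all shared by the 3 replicates. That at ftz-f1, which activates Edg84A, was weak (79.9, rank 8469) and shared by 1 replicate. Of 24 other genes of cuticle structure and tanning, from a list made in the same way, 2 (8.33%) had a summit, a share close to that of the cuticle protein genes. These were Pu, the GTP cyclohydrolase gene (signal 146, rank 4576), and obst-B, a chitin-binding protein gene (96.7, rank 7091). The peak at Pu was shared by 2 replicates and that at obst-B by 1.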

How the data were processed

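Peak lists of 3 biological replicates of OdsH-GFP ChIP-seq were read on build dm6. The authors deposited, for each replicate and their pool, 30000 rows of peaks with background as input for IDR, and 1 IDR set of 8700 peaks. Per the deposited file lists, the replicate lists share 1 control file. The signal value of each peak is the authors' own. No source used here gives the aligner, the peak caller or the sequencing depth, so precision rests on the replicates alone. The dm3 lists were not used here.

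From these files the distance of each summit to TSSs of the Ensembl release 115 annotation was computed with Python 3.11.15, pandas 2.3.3 and NumPy 2.4.6, and plots with Matplotlib 3.10.9. Counting was tested on simulated data. A peak was shared by a replicate when at least 1 bp overlapped one of its 8700 strongest rows. SDs are over replicates, except those of GC content, which are over windows or genes. The members and gene lists were chosen with earlier results of these data known. Named genes were all members with an IDR summit, the first and last of each cluster, the 5 strongest below the IDR set and list genes with a summit. Other names and the sequences printed were chosen after values were seen, and 1 summit sequence is not reported here. Alternatives changed the window, peak set, gene subset, cluster gap, overlap rule and replicates.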

Additional observations from a re-analysis of the deposited data

How the results depend on the processing

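No paired analysis was possible because the replicates form 1 group. The ratio of the cuticle share to the share of other genes was below 1 under the 18 alternatives run (0.0855 to 0.620), and 0.558 to 0.723 in the full replicate lists. A window of 500 bp gave a share of 1.64%, a ratio of 0.0855, 2 summits, a median signal of 94.4 and 0% of peaks shared by all replicates. A window of 2000 bp gave 11.5%, 0.391, 14 summits and 85.7% nearest to a cuticle protein gene. Gene bodies gave a ratio of 0.272, genes with 1 TSS 0.438, and genes under 3000 bp a share of 5.45%. Peaks shared by all 3 replicates gave 4.10%, 0.230, 5 summits and 1.64 per 100 kb of clusters. The stronger peaks, from the median rank up, gave 1.64%, 0.107, 2 summits, a signal of 330, 100% shared and 0.822 per 100 kb. The pooled list gave 22.1%, 0.571, 36 summits and 13.6 per 100 kb. The own lists of replicates 1, 2 and 3 gave ratios of 0.244, 0.192 and 0.265, replicate 1 a GC content of 35.8% and replicate 2 a share of 4.92%. Each replicate was left out in turn by keeping only IDR peaks shared by both other replicates, a stricter rule than the IDR set. Shares were then 4.10 to 4.92%, ratios 0.209 to 0.262, summits 5 to 6 and densities 1.64 to 2.06 per 100 kb. Full replicate lists shared 100% of the peaks. Cluster gaps of 10 and 50 kb gave 3.01 and 2.81 per 100 kb. Alternatives added after seeing the data were single-copy genes (8.41%), genes outside clusters (8.82%, ratio 0.381) and positioned TATAAA (ratio 0.620). The cause was not tested where values moved. Of 95 alternative values 46 stayed within the replicate SD, or within 1.5 times for counts, and 49 did not. The SD used for the share of peaks common to all replicates was that of each replicate's own overlap with the main peaks. That used for the median signal was the main value scaled by the relative spread, over replicates, of these peaks' median signal against all IDR peaks. For the cluster density and the share of summits nearest to a cuticle protein gene the replicate SD was 0. Any change in these, however small, was thus counted among the 49. Depth is unknown, so a gene without a summit is one where none was detected.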
